A study of Homo sapiens with 22 samples.

Results

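The genes described here carry retinoids through the cell: the uptake receptor gene STRA6, the retinal reductase gene RDH11, the binding protein genes CRABP1 and CRABP2, and the nuclear receptor genes RARA, RARB and RXRA. Members were the regions enriched for H3R2me2a that the authors named for 1 of these 7 genes as the nearest transcript. There were 16 such regions of 8819 in the promoter and enhancer lists together, and every gene had at least 1. The genes were chosen by the authors' region calls, because the lists name them, so their presence there is a description and not a finding.

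The cells were NT2/D1, a pluripotent embryonal carcinoma line, carrying a CRISPR/Cas9 control. They had been grown for 3 days with all-trans retinoic acid (ATRA) at 1 µM, or without ATRA. H3R2me2a was precipitated with a rat monoclonal antibody made in the laboratory, with 1 library per condition and no replicate. The series holds 22 samples, and the 20 others (further antibodies, IgG, and cells deleted for PRMT6) were not analysed here, so dependence of these regions on PRMT6 was not examined.

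Retinol enters cells through STRA6, and reductases such as RDH11 interconvert it with retinal. Retinoic acid made from retinal is held by CRABP1 or carried to the nucleus by CRABP2, where pairs of a retinoic acid receptor and a retinoid X receptor bind repeated AGGTCA-like motifs. RARB, CRABP2 and STRA6 are known as genes induced by retinoic acid in many cell types. H3R2me2a, asymmetric dimethylation of arginine 2 of histone H3, is placed mainly by PRMT6 and is known to oppose methylation of the neighbouring lysine 4.

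Each region belonged to cluster I, II or III, and to either the promoter or the enhancer list. Clusters I and II were deposited under the library without ATRA and cluster III under the ATRA library. A tag is a sequenced read counted in a region. Cluster III regions carry a count called MACS tags, and all regions carry a second count, tagcount, whose library is not given. In cluster I (202 regions) tagcount exceeded MACS tags by 0 to 8, with a median of 3. The ratio below is MACS tags over tagcount, each plus a pseudocount of 1. Depth is unknown and both counts are unscaled, so a ratio is read only against other cluster III regions, whose median was 2.02, and never against 1. All intervals are 95%. Those of tags and ratios cover counting error only, and those of shares and medians cover the sampling of a few regions. Intervals of shares and medians treat regions as independent, although several members share a gene and some lie close together. They can therefore be too narrow.

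The promoters of the genes with a promoter-list region, CRABP1, CRABP2 and RDH11, are shown because the regions lie at these starts. That of RARB is shown because it holds a pair of receptor motifs. RefSeq gave 17 promoters for the 7 genes, each from 250 bases before to 50 bases after a start on GRCh38. Capitals mark GGGCGG in CRABP1, GGTTCA in CRABP2 and the repeated motif in RARB, and RDH11 held none of the motifs searched.
CRABP1 (chr15:78340103-78340402, plus strand): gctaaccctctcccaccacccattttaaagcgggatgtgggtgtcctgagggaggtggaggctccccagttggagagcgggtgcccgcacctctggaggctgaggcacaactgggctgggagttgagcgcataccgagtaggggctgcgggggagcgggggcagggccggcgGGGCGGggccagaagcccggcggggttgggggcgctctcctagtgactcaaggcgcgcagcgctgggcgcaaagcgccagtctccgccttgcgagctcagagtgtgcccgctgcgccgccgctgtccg
CRABP2 (chr1:156705735-156706034, minus strand): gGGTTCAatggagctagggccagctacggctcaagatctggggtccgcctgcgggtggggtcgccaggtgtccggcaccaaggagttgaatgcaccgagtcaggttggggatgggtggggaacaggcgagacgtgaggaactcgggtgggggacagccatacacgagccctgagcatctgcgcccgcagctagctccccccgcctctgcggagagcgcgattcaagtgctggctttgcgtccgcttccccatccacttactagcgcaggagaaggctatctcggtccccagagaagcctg
RDH11 (chr14:67695715-67696014, minus strand): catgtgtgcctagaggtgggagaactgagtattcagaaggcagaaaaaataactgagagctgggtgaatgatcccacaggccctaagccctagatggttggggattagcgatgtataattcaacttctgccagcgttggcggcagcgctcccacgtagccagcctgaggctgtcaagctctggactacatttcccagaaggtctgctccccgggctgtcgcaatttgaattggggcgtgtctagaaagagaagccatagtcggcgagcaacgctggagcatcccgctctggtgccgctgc
RARB (chr3:25428013-25428312, plus strand): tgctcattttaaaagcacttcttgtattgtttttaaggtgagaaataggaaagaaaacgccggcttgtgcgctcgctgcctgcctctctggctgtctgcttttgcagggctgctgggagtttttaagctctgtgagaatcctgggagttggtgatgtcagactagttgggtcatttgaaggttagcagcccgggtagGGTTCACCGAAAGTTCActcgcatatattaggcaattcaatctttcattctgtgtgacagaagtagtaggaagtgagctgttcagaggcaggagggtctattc

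Motifs were searched on both strands: AGGTCA, the variant AGTTCA, the variant GGGTCA and the variant GGTTCA, alone and as direct repeats with 1, 2 or 5 bases between, and GGGCGG and TATAAA. The variants were added after the sequences had been seen. The RARB promoter held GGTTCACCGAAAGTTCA, a repeat with 5 bases between, starting 53 bases before the start. A repeat of this spacing from any of the 4 motifs was in 31 of 35116 promoters (0.0883%), and a repeat of AGGTCA itself was in none of the 17. Any single motif of the 4 was in 38.6% of all promoters and in 8 of the 17. GGGCGG was in 45.0% of all promoters and in 8 of the 17, and TATAAA in 11.5% and in 1, of STRA6. The CRABP1, CRABP2 and RDH11 windows shown had 25, 20 and 13 CG dinucleotides and the RARB window shown had 7, against a median of 14 over all promoters. A match describes these letters and does not show binding.

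Of the 16 regions, 13 were in cluster III (81.25%, 54.4 to 96.0) and 3 in cluster II (18.75%, 4.05 to 45.6). Over all regions the background was 73.9% in cluster III and 23.8% in cluster II, so the members' shares lay near it. No member was in cluster I (0 to 20.6%), against a background of 2.29%, which lies inside that interval. The enhancer list held 11 members (68.75%, 41.3 to 89.0), against a background of 52.0%, which lies inside that interval. Regions in the authors' start window of 1250 bp made up 8 of the 16 members, against 53.3% of all regions. Within the enhancer list, 4 of 11 members lay in start windows (36.4%, 10.9 to 69.2), against a background of 15.6%. These 4 regions were those of RARA and the 3 cluster III regions of STRA6, so they are not 4 independent regions.

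**Figure D1:**
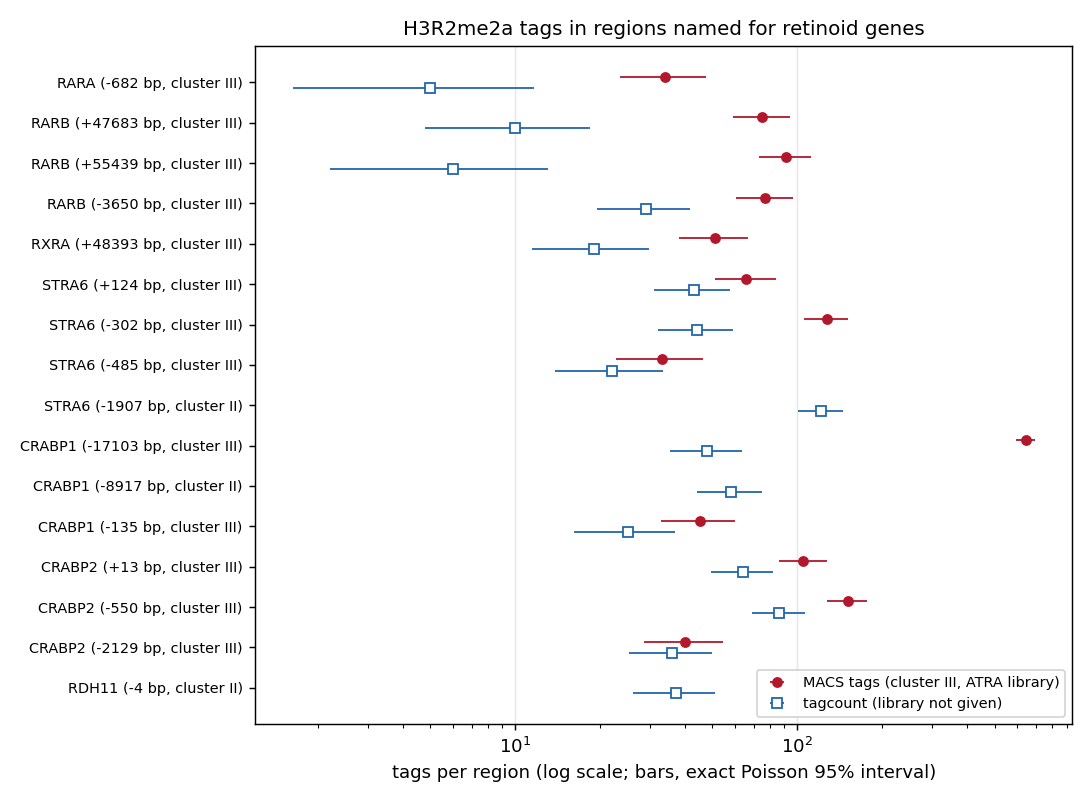
Tags in each of the 16 member regions on a log axis, with MACS tags as filled circles (13 cluster III regions), tagcount as open squares and exact Poisson 95% intervals as bars. Labels give the gene, the authors' signed distance to a start and the cluster; the CRABP1 region 17103 bp upstream stands apart with 646 MACS tags, and tagcount is lowest at RARA and at 2 RARB regions (5, 10 and 6).

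STRA6, the gene of the membrane receptor that takes up retinol from its carrier, had the most regions of the 7 genes. Its 4 regions were all in the enhancer list, within 12760 bp on chromosome 15 (74494367 to 74507126). The strongest cluster III region had 127 MACS tags, against a tagcount of 44, and lay 302 bp upstream of a start (74501143 to 74502051). A region 157 bp beyond it had 33 MACS tags, against a tagcount of 22. The region 124 bp downstream of a further start (74494367 to 74495161) had 66 MACS tags, against a tagcount of 43. The strongest region had the highest ratio, 2.84 (2.03 to 4.17). The other ratios were 1.48 (0.849 to 2.70) and 1.52 (1.03 to 2.31), and the intervals of all 3 overlap. Among enhancer-list regions of cluster III, 56.1%, 16.0% and 17.9% had a lower ratio, so the 302 bp region lay near the middle of that list and the other two in its lower part.

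The remaining STRA6 region was in cluster II and in an intron, 1907 bp upstream of a start, with a tagcount of 121 (74506213 to 74507126). This was the highest tagcount per kb of the members, 132, and the highest of the 16 regions as counted. Of the cluster II enhancer-list regions, 87.2% had a lower tagcount. The 3 cluster III regions of STRA6 had 48.4 to 54.1 tagcount per kb. Tagcount was at least 35 in all cluster II regions and went down to 0 in cluster III, so the clusters are not alike in this count. The other cluster II members, RDH11 (119) and CRABP1 at 8917 bp (91.3), were next in tagcount per kb. On GRCh38, the 4 STRA6 transcripts named by the authors start at different places in GENCODE 44. One coincided with a RefSeq start, and the others lay 8 bp upstream, 382 bp downstream and 675 bp downstream of the nearest RefSeq start.

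RDH11, whose product reduces retinal to retinol, had 1 region, at its start (chromosome 14, 68162353 to 68162662). It was in cluster II and the promoter list, 4 bp upstream of the start the authors named, with a tagcount of 37 (26.05 to 51.0). With 310 bp it was the narrowest of the 16 regions, and 1.22% of all regions were narrower. Of the cluster II promoter-list regions 3.46% had a lower tagcount, and the lowest tagcount in cluster II was 35. The second interval that cluster II lists for this region, 68162401 to 68162701, was named for another RDH11 transcript. No other region named for the 7 genes lay so close to its named start.

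CRABP1, which encodes a cytosolic retinoic acid binding protein, had a very uneven set of 3 regions over 18376 bp of chromosome 15. The region 17103 bp upstream of the start (78614484 to 78616434) had 646 MACS tags, against a tagcount of 48. The region at the start (78632290 to 78632859) had 45 MACS tags, against a tagcount of 25. Between them, a cluster II region 8917 bp upstream (78623495 to 78624129) had a tagcount of 58. As counted, the MACS tags of the upstream and start regions differed widely, while the tagcount of the 3 regions stayed between 25 and 58. The regions were 1951, 635 and 570 bp wide from the upstream region to the start. In that order they had 24.6, 91.3 and 43.9 tagcount per kb, lowest in the upstream region. The upstream region had 331 MACS tags per kb, a density exceeded by few cluster III regions (99.92% were lower), and the start region had 78.9.

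The ratio was 13.2 (10.03 to 18.4) at the upstream CRABP1 region and 1.77 (1.08 to 3.06) at the start, and these intervals do not overlap. Of enhancer-list regions in cluster III 98.7% had a lower ratio than the upstream region, and of promoter-list regions 51.4% had a lower ratio than the start region. Further from CRABP1, the next regions were also high. Intergenic enhancer-list regions that the authors named for the neighbouring gene WDR61 lay 1843 and 4880 bp from the upstream CRABP1 region (78611478 to 78612640 and 78608310 to 78609603). They had 141 and 368 MACS tags, against tagcount values of 27 and 51. Their ratios were 5.07 (3.44 to 8.20) and 7.10 (5.37 to 9.87). The region at the WDR61 start had 37 MACS tags, against a tagcount of 14.

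CRABP2, whose product carries retinoic acid to its receptors, had all its regions in the promoter list, as did RDH11 with its single region. Its 3 cluster III regions nearly abutted on chromosome 1 (156674650 to 156677885), with gaps of 8 and 45 bp, and covered 3183 of 3236 bp. The region over the start had 105 MACS tags, against a tagcount of 64. The region 550 bp upstream had 151 MACS tags, against a tagcount of 86. The region 2129 bp upstream had 40 MACS tags, against a tagcount of 36. As counted, both columns put the 3 regions in the same order, but the regions differ in width (1232, 1429 and 522 bp). In tags per kb the MACS values were 85.2, 106 and 76.6, and the tagcount values were 51.9, 60.2 and 69.0. Per kb the region at 2129 bp was thus lowest in MACS tags and highest in tagcount.

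CRABP2 ratios had overlapping intervals: 1.63 (1.19 to 2.28) over the start, 1.75 (1.34 to 2.32) at 550 bp and 1.11 (0.690 to 1.79) at 2129 bp. The median of promoter-list regions in cluster III was 1.74, and 39.5%, 50.1% and 3.03% of them had a lower ratio. Only the region at 2129 bp thus lay far down that list. All 3 intervals lie below that of the upstream CRABP1 region, but that region is in the enhancer list, where the cluster III median was 2.57. Close spacing was shared with STRA6: 5 of 16 members (31.25%) had another region within 200 bp, the 3 of CRABP2 and 2 of STRA6. These regions are neighbours of each other, so they do not count as 5 independent regions and no interval is given. The background, counted the same way, was 5.47%.

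**Figure D2:**
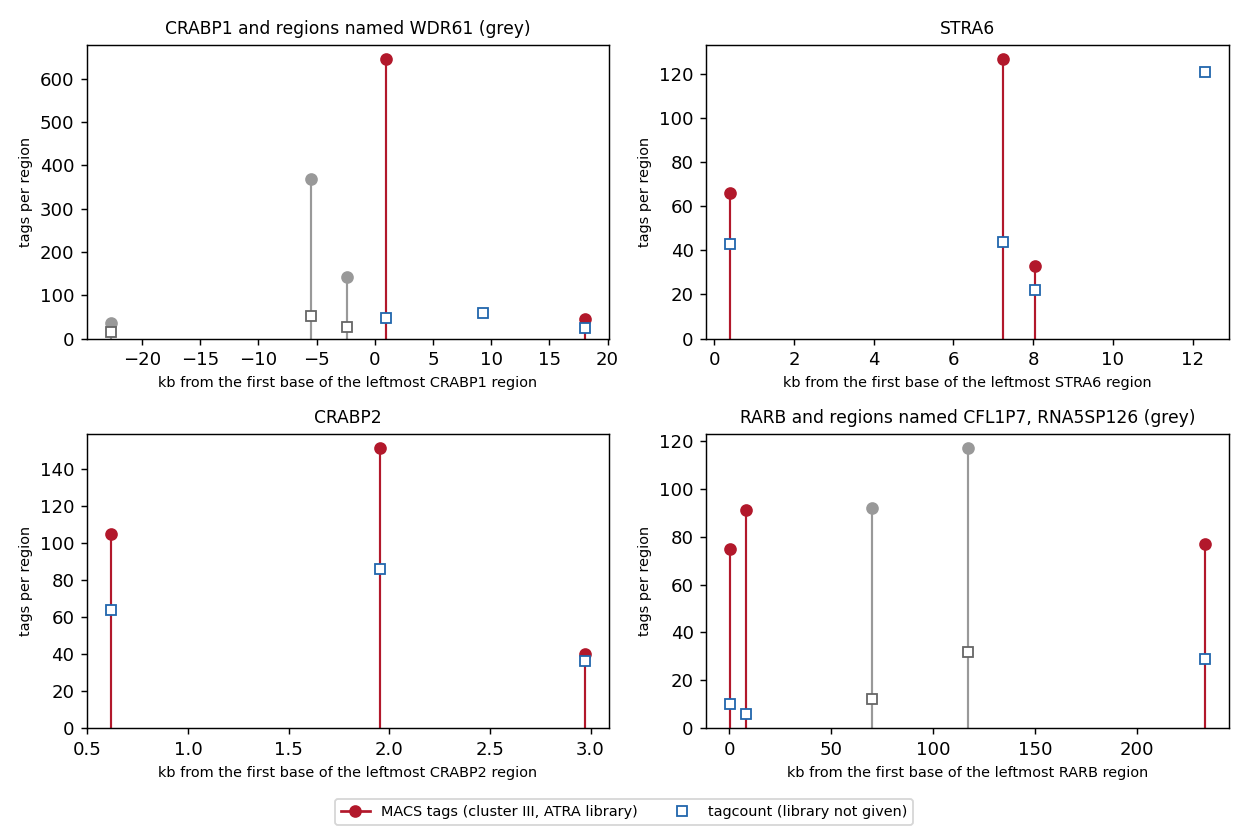
Tags per region along the 4 loci with 3 or more members, by distance in kb from the leftmost member, with MACS tags as filled circles on stems and tagcount as open squares; regions without a circle are in cluster II. MACS tags reach 646 at CRABP1 and 368 and 141 at the neighbouring WDR61-named regions (grey), while at RARB the MACS tags of the 5 regions stay between 75 and 117. Counts are not scaled to region width.

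RARB encodes retinoic acid receptor beta, whose promoter holds the well-known retinoic acid response element shown above. Its 3 regions were intronic, in cluster III and the enhancer list, and spread over 233502 bp of chromosome 3. The region 47683 bp downstream of a start (25263153 to 25263785) had 75 MACS tags, against a tagcount of 10. The region at 55439 bp (25271092 to 25271575) had 91 MACS tags, against a tagcount of 6. The transcript from which these distances were measured was not found in GENCODE 44. The region 3650 bp upstream of a more distant start (25495813 to 25496654) had 77 MACS tags, against a tagcount of 29. As counted, MACS tags were thus close to each other, and tagcount was highest in the last region.

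The RARB ratios were 6.91 (3.86 to 16.3), 13.1 (6.71 to 42.4) and 2.60 (1.71 to 4.22). The intervals at 55439 and 3650 bp do not overlap. Of enhancer-list regions in cluster III 91.9%, 98.7% and 50.8% had a lower ratio. In the same order, MACS tags per kb were 118 (93.2 to 149), 188 (151 to 231) and 91.4 (72.2 to 114). Here too the intervals at 55439 and 3650 bp do not overlap. Between these 2 regions lay 2 more intronic cluster III regions, named by the authors for CFL1P7 and RNA5SP126 (25332834 to 25333582 and 25379522 to 25380410). They had 92 and 117 MACS tags, against tagcount values of 12 and 32, and ratios of 7.15 (4.18 to 15.4) and 3.58 (2.45 to 5.59). None of the RARB-named regions was in the promoter list. The transcript named at 3650 bp starts 30047 bp downstream of the start of the RARB promoter shown above, both on GRCh38.

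RARA, the gene of retinoic acid receptor alpha, had 1 cluster III region in the enhancer list (chromosome 17, 38506716 to 38507068). It had 34 MACS tags, against a tagcount of 5, the lowest tagcount of the members. The ratio was 5.83 (2.65 to 22.3), and 87.8% of enhancer-list regions in cluster III had a lower one. The region lay 682 bp upstream of a transcript start, and on GRCh38 that start is 9221 bp downstream of the nearest RefSeq start of RARA. GENCODE 44 lists this transcript without a defined coding sequence. With 353 bp the region was narrow, and 4.85% of all regions were narrower.

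RXRA, the gene of retinoid X receptor alpha, the partner of the other receptors, had 1 intergenic enhancer-list region (chromosome 9, 137346430 to 137347059). It lay 48393 bp downstream of the start the authors named and had 51 MACS tags, against a tagcount of 19. The ratio of 2.60 (1.56 to 4.81) was close to the enhancer-list median of 2.57. Another cluster III region, named for a different gene, lay 797 bp further on and had 74 MACS tags, against a tagcount of 29. The transcript named for RXRA was not found in GENCODE 44.

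**Figure D3:**
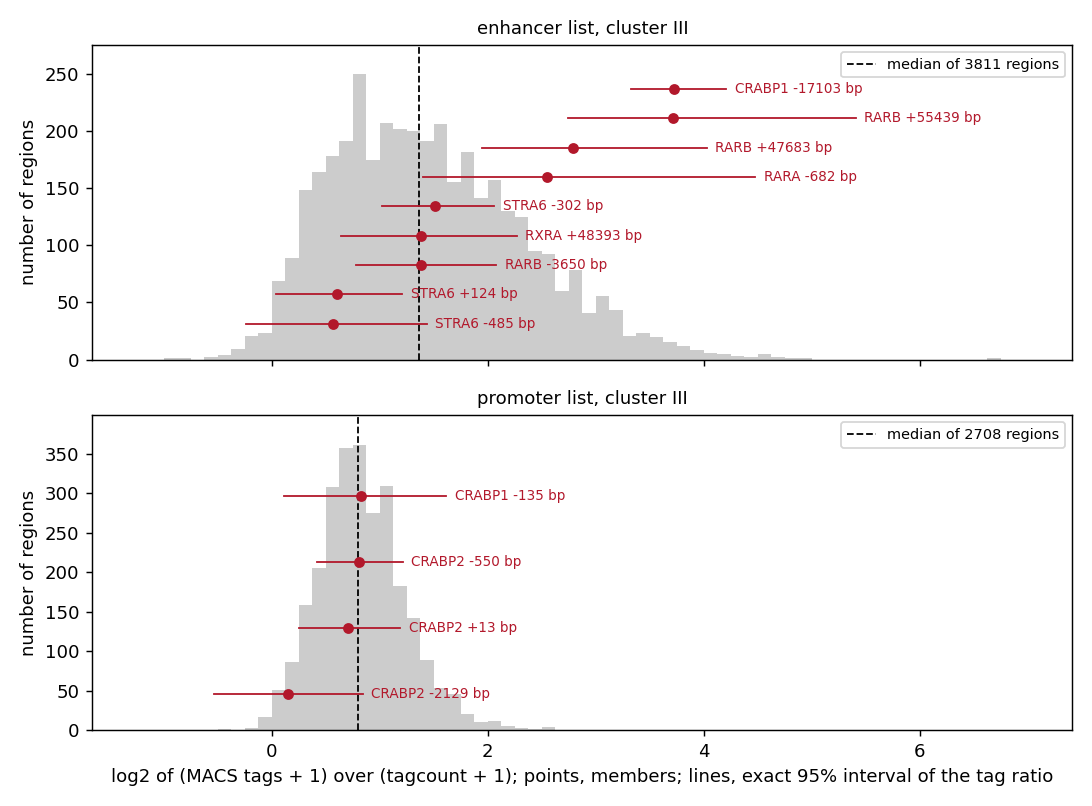
Log2 ratios of the 13 cluster III members (points, with exact 95% intervals as lines at arbitrary heights) over histograms of all cluster III regions of the enhancer list (upper panel) and promoter list (lower panel), with the median of each list dashed. CRABP1 at 17103 bp, RARB at 47683 and 55439 bp and RARA lie in the upper part of the enhancer list, and in the promoter list the CRABP1 start and CRABP2 at 550 bp lie close to its median, with the other 2 CRABP2 points below it.

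Over the 13 cluster III members the median ratio was 2.60 (1.52 to 6.91), against 2.02 over all cluster III regions. Without RARB it was 1.76, below that background, so the side on which the members' median lay depended on this gene. With 1 median per gene it was 4.22 over 6 genes, against 2.01 over all genes. A ratio of at least 4 was seen in 4 of 13 members (30.8%, 9.09 to 61.4), against a background of 15.8%. All 4 were in the enhancer list, where they made up 4 of 9 (44.4%, 13.7 to 78.8) against a background of 26.3%. In the promoter list it was 0 of 4 members (0 to 60.2%), against a background of 0.997%. Each background lies inside the members' interval. By list the median was 2.84 in 9 enhancer-list members and 1.69 in 4 promoter-list members, against 2.57 and 1.74 in all regions of those lists.

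Median width and median tag density of all regions lay inside the intervals of the members' medians, while single members had a higher density. Their median width was 634 bp (484 to 914), against 513 bp over all regions, and the upstream CRABP1 region was the widest at 1951 bp. Median MACS tags per kb in cluster III were 91.4 in members (80.3 to 140) and 97.3 in all regions. Per kb, the members ran in the order CRABP1 upstream (331), RARB at 55439 bp (188), STRA6 at 302 bp (140) and RARB at 47683 bp (118). The other 9 cluster III members lay between 76.6 and 106, and their counting intervals all overlap. The interval of RARB at 47683 bp (93.2 to 149) overlaps all of theirs too, so this region does not stand apart from them. That of STRA6 at 302 bp (116 to 166) overlaps, among the 9, only those of RARA (66.7 to 135) and CRABP2 at 550 bp (89.5 to 124). STRA6 at 302 bp is thus not clear of all of them either. The cut was made after ranking.

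Genes with 3 or more regions were 436 of 6697 named genes (6.51%), and RARB, STRA6, CRABP1 and CRABP2 were among them. Genes with the same number of regions in each cluster and list were then ordered by nearness of their median log2 ratio, given here as a ratio. For RARB (6.91) there were 107 such genes, with TSHZ1 (7.38), RAPGEF5 (7.46) and PDZRN3 (7.55) nearest. For CRABP2 (1.63) there were 12, led by KRT8 (1.58), SLC7A5P1 (1.70) and SALL1 (1.79). For STRA6 (1.52) there were 14, led by CACNA2D4 (1.47) and AC093106.7 (1.69). CRABP1 (4.83) had 5, and the nearest, PPAP2B (3.13), ARRB1 (1.90) and ULK4 (1.88), were all lower. Likeness rests on 1 library per condition.

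Of 48 other genes of the retinoid pathway 7 were named by the authors, with 13 regions. The share of all annotated genes that were named was not computed. Counts of genes named or not named, here and for the markers below, are therefore a description only. None of the other receptor genes RARG, RXRB and RXRG was named, nor any of 4 retinal dehydrogenase genes or of the 3 CYP26 genes, whose products break down retinoic acid. RDH14, a relative of RDH11, had a cluster II region at its start with a tagcount of 152, as did the esterifying enzyme gene DGAT1 (58).

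Of the coregulator genes, CREBBP, which encodes a histone acetyltransferase, had a cluster III region at its start with 49 MACS tags, against a tagcount of 28, and NCOA3 and ASXL1 had cluster II regions at their starts with tagcount values of 52 and 128. As a check of the cell type, 4 of 8 pluripotency markers (POU5F1, SOX2, LIN28A and SALL4), 4 of 5 neural markers and 1 of 4 fibroblast markers had a region, but a region list does not measure expression and cannot test the label.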

How the data were processed

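H3R2me2a was mapped by chromatin immunoprecipitation and sequencing in control NT2/D1 cells with and without ATRA, 1 library each. Per the submitters' processing notes, bcl2fastq, Bowtie2, MACS 1.4 and deepTools were used on hg19 (GRCh37), with no role or order given. The authors deposited whole-number tag counts with no scaling, per the file headers: MACS tags for clusters I and III, and tagcount for both the promoter list and the enhancer list. How clusters and lists were defined, which control served for calling and how deeply libraries were sequenced is not stated in the sources.

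Lists were joined on chromosome, start and stop with Python 3.11.15 and pandas 2.3.3. Ratios had a pseudocount of 1. Their intervals are exact 95% conditional binomial intervals on raw counts (SciPy 1.17.1) and those of tags exact Poisson, and both cover counting error only. Intervals of shares are exact binomial over regions, and those of medians come from the ordered values of the regions. Both treat regions as independent. The ratio and median intervals were tested on simulated data. With 1 library per condition no p-value was computed. The members and the gene lists were chosen with earlier results of these data known. Text naming covered all members, listed pathway genes with a region, genes named by regions within 50 kb of or between a member's regions, and for each member with 3 or more regions the genes with the same region counts and nearest median ratio. A few genes this rule names are not reported here. Alternatives changed the assignment, tag threshold, class, pseudocount and summary. RefSeq promoters and GENCODE 44 transcripts are on GRCh38 and were never placed on the hg19 regions.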

Additional observations from a re-analysis of the deposited data

How the results depend on the processing

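No paired analysis was possible because there was 1 library per condition. Counting every region within 50 kb of a member gave 29 regions in cluster III and 8 in cluster II, in place of 13 and 3, by construction. Dropping regions whose tagcount was under the median of their list left 6 and 2. Cluster III then held 75% of the members kept (34.9 to 96.8), against 51.2% of all regions kept. That background lies inside the interval but further from the members' share than in the main setting. The repeat with 5 bases between was in the promoters of 0 of the 7 genes with AGGTCA alone and of 1 with the 4 motifs, an alternative chosen after seeing the data. The shares in cluster III (75 to 85.7%) and in the enhancer list (50 to 75%) and the median width (653 bp with the second interval of cluster II) stayed inside their main intervals under the alternatives run for them. The backgrounds beside these shares were 51.2 to 73.9% in cluster III and 46.7 to 51.7% in the enhancer list. The median ratio was 2.33 to 4.22 under other pseudocounts and summaries and 1.76 to 2.72 with 1 of 6 genes left out in turn, lowest, and below the 2.02 of all cluster III regions, without RARB. It was 2.18 without the upstream CRABP1 region, which was chosen after seeing the data. Low tagcount values limit the ratio: at RARA a tagcount of 5 gives an interval of 2.65 to 22.3.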

Other observations

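Regions next to CRABP2 included those of NES, the neural intermediate filament gene nestin, and of ISG20L2, MRPL24 and HDGF. Within 50 kb of the CRABP2 regions lay 15 further regions, named for 7 genes, 11 of them in cluster III. A NES intron region had 70 MACS tags, against a tagcount of 17, and a ratio of 3.94 (2.40 to 7.46), and 99.0% of promoter-list regions in cluster III had a lower one. This ratio was the highest of the 11, whose median was 1.86. The region at the NES start had 96 MACS tags, against a tagcount of 45, and a ratio of 2.11 (1.48 to 3.11). A NES exon region was in cluster II, with a tagcount of 49. The region named RP11-66D17.3 had 317 MACS tags, against a tagcount of 110. MRPL24 had a cluster II region with a tagcount of 553. Near STRA6 the 1 further region, in an intron of CCDC33, had a ratio of 1.10 (0.696 to 1.76).

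The enhancer list is ordered so that the clusters run I, II, III and then I, II, III again, in blocks of 3830 and 753 regions. No source used here says what the blocks mean. The second block held 3 of 4 STRA6 regions and the RARB region with the lowest ratio, and the first held the RARA, RXRA and CRABP1 regions and the other RARB regions. The median ratio in cluster III was 1.83 in the second block and 2.79 in the first. The promoter list repeats the order 7 times, and the CRABP2 regions lay in 2 of its blocks.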
